A study of Homo sapiens with 12 samples.

Results

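The comparison of ML-792 alone with vehicle rests on 6 of the 12 RNA-seq libraries of a study of HL-60 cells: the 3 libraries labelled ML-792 and the 3 labelled DMSO, taken by their column names from the table of raw read counts. HL-60 is an established human acute myeloid leukemia (AML) line of promyelocytic type. The study treated these cells for 3 h with the solvent DMSO, with 0.5 µM ML-792, with 1 µM of the anthracycline daunorubicin (DNR) or with both drugs, in 3 replicates each, to ask how SUMOylation shapes the transcriptional response to DNR. The DMSO and ML-792 cells received no DNR, so their difference gives the effect of the inhibitor on cells without genotoxic stress. All results concern 1 cell line, 1 dose and 1 time point.

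SUMO proteins are small ubiquitin-related modifiers that are activated by the SAE1/UBA2 enzyme and then attached to lysines of target proteins, many of which are transcription factors and chromatin regulators. SENP proteases remove them. ML-792 blocks the SAE1/UBA2 step, so that conjugates are lost as the proteases go on working. SUMO on chromatin is best known for its part in transcriptional repression, among others at KRAB zinc finger genes, endogenous retroviruses and germ line genes.

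The 6 libraries held between 31452649 and 46451654 reads in genes. Levels are given as CPM, the reads of a gene scaled to a library of fixed size after TMM normalization. Differences are log2 values (ML-792 minus DMSO) from edgeR's quasi-likelihood test, fitted with the replicate number as a block and adjusted by Benjamini-Hochberg over 13696 genes. Called genes are those with an adjusted p under 0.05 that differed 2-fold or more. Promyelocyte genes were expressed: MPO averaged 11260 CPM in both groups, and CTSG, AZU1, PRTN3, MYB, SPI1, CEBPA, CD33 and MS4A3 averaged between 39.3 and 508 CPM. ELANE was low, at 0.675 CPM in DMSO and 1.81 CPM in ML-792. None of these 10 markers passed the adjusted p with edgeR, but SPI1 passed with DESeq2 and their median log2 difference was 0.28. At an unadjusted p below 0.05 in edgeR, 7 were higher and 1 lower, beside 9.79% of all genes in either direction. Most markers of other cell types had too few reads to be tested. Those tested were 2 of 8 lymphocyte, 1 of 8 erythroid, 2 of 10 stromal and epithelial and 0 of 5 megakaryocyte genes. None of the tested ones passed. CD3E, MS4A1, HBB, HBA1, COL1A2, EPCAM, VWF and PF4 had no read in the 6 libraries, while NKG7 had 9.55 and 8.67 CPM and KRT8 2.51 and 2.34 CPM in DMSO and ML-792. The other tested markers were PECAM1 (2.78 and 2.44 CPM), CD79A (0.314 and 0.451 CPM) and KLF1 (0.593 and 0.891 CPM). Mitochondrial transcripts took 4.01%, 2.55% and 3.48% of reads in DMSO replicates 1 to 3 and 5.12%, 3.27% and 3.29% in ML-792.

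After 3 h of ML-792, few genes of HL-60 cells differed from DMSO. The test called 22 genes higher (0.161% of genes tested) and 3 lower (0.0219%). With no minimum on the size of the change, 104 genes were higher (0.759%) and 50 lower (0.365%), 154 in all. The median log2 difference over all genes was -0.01, and 95% of genes lay between -0.49 and 0.54. The data were precise enough to see larger effects in most genes: for 99.4% of the 9296 genes averaging at least 5 CPM, the 95% confidence interval of the difference stayed within 2-fold in either direction.

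**Figure D1:**
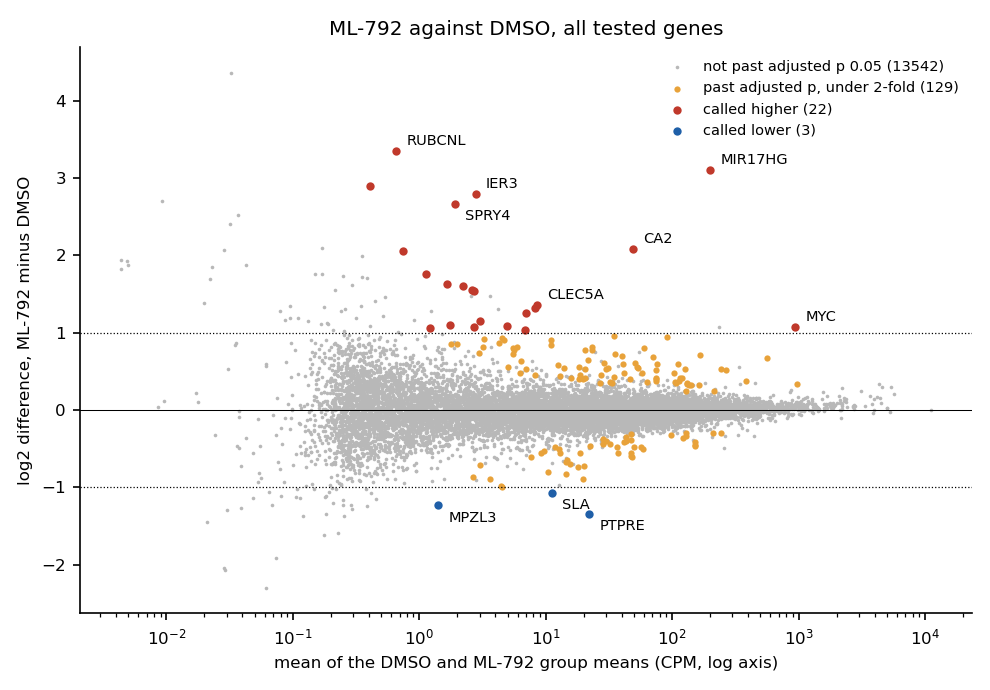
Each point is 1 of the tested genes, plotted by the mean of its DMSO and ML-792 levels (CPM, log axis) and by its log2 difference between the groups, with dotted lines at 2-fold. The 22 genes called higher (red) include MIR17HG and MYC at high levels, but most lie below 5 CPM, and the 3 called lower (blue) are PTPRE, MPZL3 and SLA.

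The 25 called genes were 19 protein-coding genes, 5 long noncoding RNAs and LOC102724908, which matched no gene of the annotation used here. Most of those called higher were weakly expressed: 14 of the 22 averaged below 5 CPM in ML-792, and the median of the 22 in DMSO was 1.38 CPM. RNA was taken in bulk, so a change in the share of cells that express a gene cannot be told apart from a change per cell. In 23 of the 25 genes the 3 ML-792 values lay entirely above or below the 3 DMSO values. CIART, a repressor of the circadian clock, and SPP1 (osteopontin) were the exceptions. The genes were called on these same libraries, so this separation is a description and adds no support to the calls. The share of all genes tested with such separation is not given here, so the count has no background to be set against. The choice of the fit mattered for the number of calls. Without the replicate block 10 genes were called higher and 1 lower, and without both libraries of replicate 3 the counts were 4 and 0. Leaving out replicate 2, DMSO replicate 1 or DMSO replicate 3 gave 12, 13 and 14 genes called higher, and leaving out ML-792 replicate 2 gave 1 called lower. The 4 genes that passed in every alternative fit were MIR17HG, CA2, CLEC5A and SPRY4.

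MicroRNA host transcripts made up 22.7% of the genes called higher, while genes that span a microRNA hairpin were 3.83% of all genes tested. This grouping was made after the values were seen and was not tested. A host transcript is the long primary RNA from which microRNA hairpins are cut, and each mature microRNA recognises targets mainly through its seed, bases 2 to 8. Of the 22 genes called higher, 5 carry microRNA hairpins in the RefSeq annotation (GRCh38.p14): MIR17HG, C1orf132 (now named MIR29B2CHG), MIR99AHG, SPACA6 and MIR503HG. The libraries were made from polyadenylated RNA, so they report the hosts and not the mature microRNAs, whose levels were not measured. The 15 mature sequences of the 5 hosts, the arms usually taken as guide strands, show what these genes encode. They are credited to RefSeq, run from 5′ to 3′, and have the seed in capitals.
The MIR17HG transcript (chr13:91999940-92049846, plus strand, GRCh37) carries the miR-17/92 cluster, in which miR-17 and miR-20a share a seed, as do miR-19a and miR-19b.
hsa-miR-17-5p: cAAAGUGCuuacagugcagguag
hsa-miR-20a-5p: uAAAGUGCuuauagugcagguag
hsa-miR-18a-5p: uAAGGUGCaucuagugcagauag
hsa-miR-19a-3p: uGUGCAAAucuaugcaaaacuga
hsa-miR-19b-3p: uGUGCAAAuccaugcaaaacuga
hsa-miR-92a-3p: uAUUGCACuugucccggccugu
C1orf132 (chr1:207933995-208052460, minus strand) carries a pair with 1 common seed.
hsa-miR-29b-3p: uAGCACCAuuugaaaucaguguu
hsa-miR-29c-3p: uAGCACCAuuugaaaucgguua
MIR99AHG (chr21:17300616-18018683, plus strand) and SPACA6 (chr19:52191599-52215640, plus strand) lie on different chromosomes and carry related clusters: the miR-99, let-7 and miR-125 seeds each occur in both.
hsa-miR-99a-5p: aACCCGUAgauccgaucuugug
hsa-miR-99b-5p: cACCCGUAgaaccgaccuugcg
hsa-let-7c-5p: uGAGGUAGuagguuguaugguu
hsa-let-7e-5p: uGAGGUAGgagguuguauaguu
hsa-miR-125b-5p: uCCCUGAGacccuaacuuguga
hsa-miR-125a-5p: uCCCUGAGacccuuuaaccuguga
MIR503HG (chrX:133677149-133680672, minus strand) carries miR-503. It is shown beside the pair carried by DLEU2, a host that passed the adjusted p at less than 2-fold.
hsa-miR-503-5p: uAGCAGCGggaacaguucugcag
hsa-miR-15a-5p: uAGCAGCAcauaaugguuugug
hsa-miR-16-5p: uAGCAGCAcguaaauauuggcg

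In the gene models on GRCh37, the hairpins of miR-99b (chr19:52195865-52195934), let-7e (chr19:52196039-52196117) and miR-125a (chr19:52196507-52196592) lie in an intron of SPACA6. Only 2 of 15 SPACA6 transcripts span them. That of miR-99a (chr21:17911409-17911489) lies in an intron of MIR99AHG, spanned by 128 of 258 transcripts. That of miR-503 (chrX:133680358-133680428) lies in an intron of MIR503HG, spanned by 3 of 10. The let-7c hairpin (chr21:17912143-17912236) is intronic in 125 of the 128 MIR99AHG transcripts that span it. The hairpin MIR125B2 (chr21:17962557-17962645), which gives miR-125b, overlaps an exon in 1 of 126.

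MIR17HG had the largest increase of the 5 hosts. It measured 35.5, 44.04 and 47.4 CPM in DMSO replicates 1 to 3 and 453, 286 and 338 CPM in the ML-792 libraries, so that the lowest treated value was several times the highest vehicle value. The log2 difference was 3.10 ± 0.19 (SE, n = 3 per group; edgeR adjusted p = 1.455e-05), or 8.57-fold, with a 95% confidence interval of 2.69 to 3.51.

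The other 4 hosts had far fewer reads. MIR503HG rose from 4.27, 4.21 and 4.87 CPM to 10.7, 6.83 and 10.3 CPM (log2 difference 1.04 ± 0.14, edgeR adjusted p = 0.005347), with replicate 2 showing the smallest step. C1orf132 rose from 2.12, 1.58 and 1.86 CPM to 4.596, 4.33 and 3.56 CPM (1.15 ± 0.15, edgeR adjusted p = 0.005064), and its groups did not overlap. MIR99AHG rose from 0.648, 0.588 and 1.25 CPM to 3.15, 1.49 and 2.91 CPM (1.63 ± 0.23, edgeR adjusted p = 0.00576), again with the lowest treated value in replicate 2. SPACA6, a gene needed for sperm-egg fusion, stood on few reads, 30 to 31 per DMSO library and 48 to 63 per ML-792 library. Its levels of 0.648, 0.959 and 0.765 CPM against 1.26, 1.88 and 1.82 CPM gave a log2 difference of 1.06 ± 0.20 (edgeR adjusted p = 0.02981), a call that was lost whenever any 1 of the 6 libraries was left out. How the counting treated strand is not stated, so reads of overlapping antisense genes cannot be separated from those of the hosts.

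A list of known hosts gave a mixed picture. Of its 29 entries 16 were tested, with a median log2 difference of 0.22 against -0.01 over all genes. At the adjusted p 4 passed upward (0.759% of all genes did) and 0 downward. The list was drawn up with earlier results of these data known, so this share is a description. The fourth, after MIR17HG, MIR99AHG and C1orf132, was DLEU2, host of miR-15a and miR-16-1, with 55.2, 54.0 and 54.6 CPM in DMSO and 99.4, 75.4 and 87.8 CPM in ML-792 (0.68 ± 0.10, edgeR adjusted p = 0.008664). DLEU2 passed in 4 of the 6 fits without a single library. In the wider set of all 525 tested genes that span a microRNA hairpin, a set formed after the values were seen, 10 passed upward and 2 downward, and the median was -0.03. MCM7, which hosts the miR-106b cluster and is itself a replication helicase subunit, showed 0.08 ± 0.05.

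None of the tested neighbours of the 5 hosts, within 100 kb, passed the adjusted p. CD46, which overlaps C1orf132 on the opposite strand, averaged 212 CPM in both groups, with a log2 difference of -0.00082 ± 0.05 (95% confidence interval -0.12 to 0.11). With the strand option not stated, reads of the 2 genes cannot be fully separated. HPRT1 beside MIR503HG showed 0.11 ± 0.05, USP25 beside MIR99AHG 0.12 ± 0.07, and ZNF175 beside SPACA6 -0.18 ± 0.09. Near MIR17HG no other gene had enough reads to be tested: GPC5 had 36 reads and PPIAP23 14 reads in all 12 libraries.

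Among the protein-coding genes called higher, CA2, which encodes a cytosolic carbonic anhydrase, had the smallest adjusted p of all genes. Its values were 18.7, 20.5 and 16.8 CPM in DMSO and 84.6, 86.3 and 66.7 CPM in ML-792 (log2 difference 2.08 ± 0.10, edgeR adjusted p = 4.121e-06). MYC is a transcription factor that drives proliferation. It measured 519.8, 725 and 584 CPM in DMSO and 1045, 1507 and 1296 CPM in ML-792, a log2 difference of 1.07 ± 0.12 (edgeR adjusted p = 0.001499). In both genes replicate 2 was the highest library of its group, and the groups were well apart.

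SPRY4 and IER3, both genes of the growth factor and stress response, rose from low levels. SPRY4, a feedback inhibitor of receptor tyrosine kinase signalling to ERK, went from 0.324, 0.557 and 0.663 CPM to 2.71, 4.50 and 2.71 CPM (2.67 ± 0.22, edgeR adjusted p = 0.000266). IER3, an immediate early gene that modulates cell survival, went from 0.497, 1.24 and 0.433 CPM to 3.26, 6.41 and 4.94 CPM (2.79 ± 0.29, edgeR adjusted p = 0.0014). For both, replicate 2 gave the highest treated value, and no treated library came near the vehicle range.

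Genes of myeloid and inflammatory function followed. CLEC5A, a C-type lectin receptor of monocytes and neutrophils, measured 4.598, 4.80 and 4.92 CPM in DMSO and 12.3, 14.4 and 10.4 CPM in ML-792 (1.35 ± 0.12, edgeR adjusted p = 0.0005315). SERPINB2, a plasminogen activator inhibitor of monocytes, measured 0.993, 1.30 and 1.76 CPM against 3.81, 3.82 and 4.06 CPM (1.55 ± 0.17, edgeR adjusted p = 0.001499). CYP4F3, which inactivates leukotriene B4 in neutrophils, measured 0.324, 0.464 and 0.790 CPM against 1.92, 1.37 and 1.88 CPM (1.76 ± 0.31, edgeR adjusted p = 0.02096), a call that held in 1 of the 6 fits without a single library. The treated values of SERPINB2 were almost identical, while CYP4F3 spread more in both groups.

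The remaining large increases were in genes near the limit of detection. RUBCNL, a regulator of autophagosome maturation, had 8, 3 and 3 reads in the DMSO libraries and 49, 27 and 51 in ML-792, that is 0.173, 0.0928 and 0.0765 CPM against 1.29, 0.805 and 1.5 CPM (3.34 ± 0.51, edgeR adjusted p = 0.01008). CHRNA6, a nicotinic receptor subunit, measured 0.324, 0.217 and 0.306 CPM against 1.39, 1.04 and 1.18 CPM (2.06 ± 0.34, edgeR adjusted p = 0.01345). The noncoding LINC00861 had 7, 4 and 0 reads in DMSO and 25, 16 and 36 in ML-792 (2.90 ± 0.55, edgeR adjusted p = 0.02928). In all 3 genes the groups were apart, but their folds have wide errors at these counts. Of the 6 fits that left out a single library, the call held in 2 for RUBCNL, 1 for CHRNA6 and 0 for LINC00861.

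ANGPT1, the ligand of the TIE2 receptor, was nearly constant in DMSO at 1.12, 1.05 and 1.07 CPM and higher in each ML-792 library at 3.07, 4.06 and 3.03 CPM (1.61 ± 0.29, edgeR adjusted p = 0.02202). TMEM71 measured 1.23, 1.11 and 1.86 CPM against 4.20, 3.43 and 4.38 CPM (1.53 ± 0.17, edgeR adjusted p = 0.001468). The other genes called higher had log2 differences between 1.07 and 1.32. They were NFE2, a transcription factor of the megakaryocytic and erythroid lineages (1.32 ± 0.19), LOC102724908 (1.26 ± 0.17), SPP1 (1.10 ± 0.19), IRGM, an immunity-related GTPase tied to autophagy (1.09 ± 0.17), and CIART (1.07 ± 0.21). The calls of CIART and SPP1 each held in only 1 of the 6 fits that left out a single library, and that of ANGPT1 in 0.

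The genes called lower were 3. PTPRE, a receptor-type protein tyrosine phosphatase, had 33.2, 30.9 and 30.5 CPM in DMSO and 13.2, 12.3 and 11.9 CPM in ML-792 (-1.34 ± 0.11, edgeR adjusted p = 0.0002662), with very little spread in either group. MPZL3, a membrane protein of the immunoglobulin superfamily, had 2.09, 1.80 and 1.99 CPM against 0.762, 0.626 and 1.15 CPM (-1.23 ± 0.20, edgeR adjusted p = 0.01239). SLA, a Src-like adaptor that dampens receptor signalling in blood cells, had 15.4, 14.1 and 15.9 CPM against 7.01, 6.38 and 8.38 CPM (-1.07 ± 0.22, edgeR adjusted p = 0.0489). The adjusted p of SLA sits just inside the threshold, and the call held in 1 of the 6 fits without a single library. Its groups did not overlap. The fit estimates 1 spread over all 12 libraries, and SLA averaged 1.42 CPM in the DNR libraries and 2.103 CPM in those with both drugs.

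**Figure D2:**
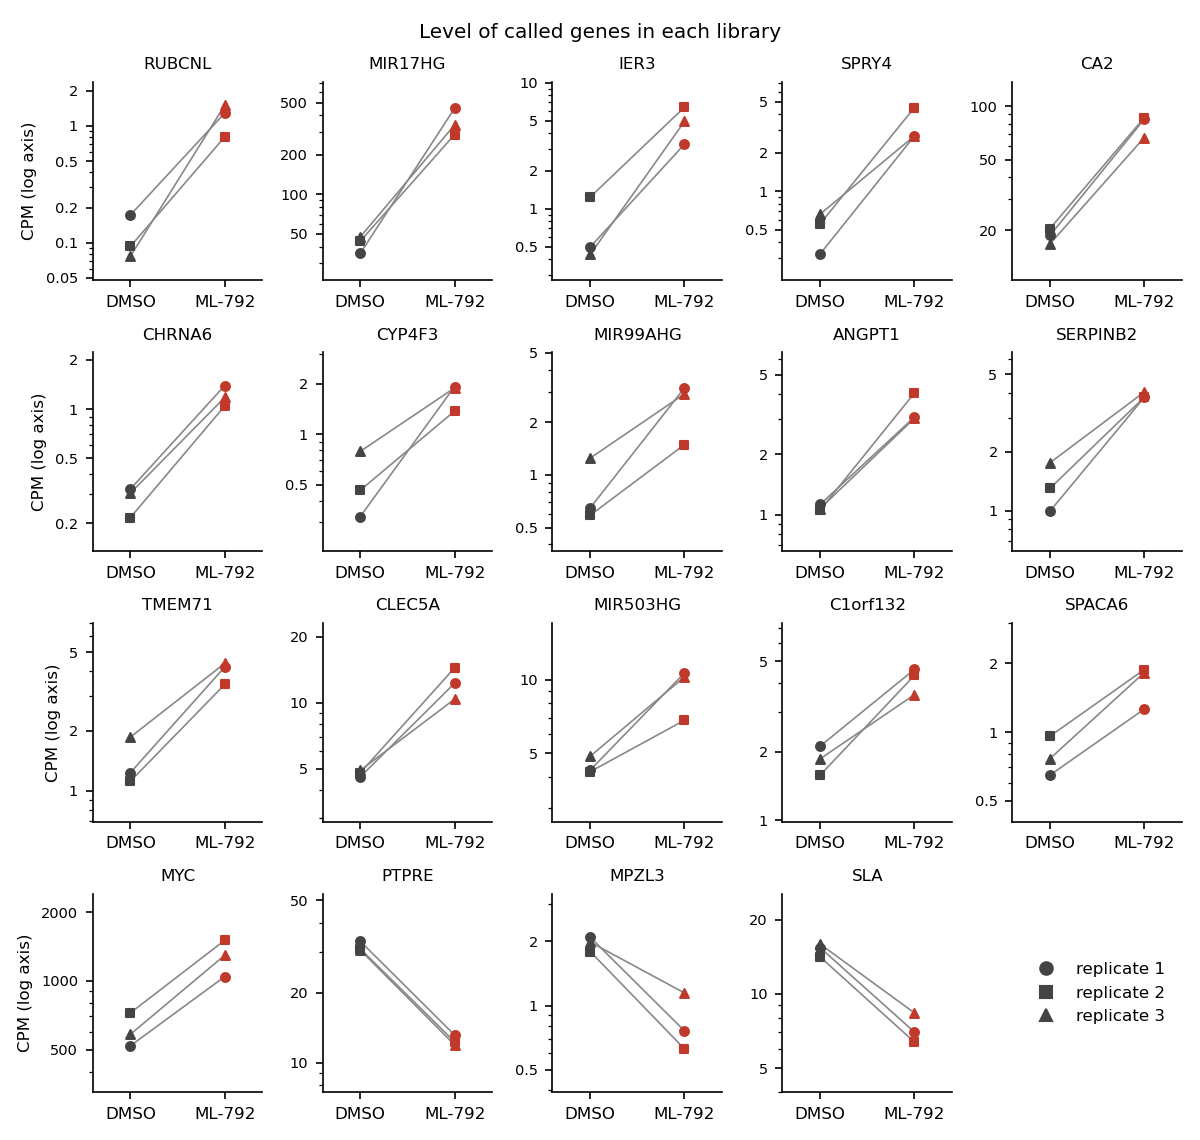
Level of 19 called genes in each of the 6 libraries (CPM, log axis, with a separate scale per gene); a line joins the DMSO and ML-792 libraries of the same replicate number. All 3 lines rise in the 16 genes called higher and fall in PTPRE, MPZL3 and SLA, and in each panel the 2 groups are apart.

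Below the 2-fold limit, 82 further genes were higher and 47 lower at the adjusted p. The most raised of these with at least 5 CPM in the higher group included regulators of signalling and of hematopoietic progenitors. RGS16, a GTPase-activating protein that shortens G protein signalling, rose from 21.0, 30.1 and 20.1 CPM to 42.5, 50.03 and 44.5 CPM (0.96 ± 0.10, edgeR adjusted p = 0.0008642). GATA2, a transcription factor of blood stem and progenitor cells, rose from 58.2, 69.9 and 59.7 CPM to 100.4, 134 and 127 CPM (0.94 ± 0.10, edgeR adjusted p = 0.001499). The others were DRAM1, a lysosomal membrane protein linked to autophagy (0.93 ± 0.11), NOG, an antagonist of bone morphogenetic proteins (0.90 ± 0.16), and ZNF10, a KRAB zinc finger repressor (0.90 ± 0.15). In the 6 fits without a single library, RGS16, GATA2 and DRAM1 passed in 6 each, ZNF10 in 3 and NOG in 2.

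The most lowered genes of this kind were CCNG2, an atypical cyclin of resting cells, IL18RAP, a subunit of the interleukin 18 receptor, ID2, an inhibitor of basic helix-loop-helix factors, SLC2A3, the glucose transporter GLUT3, and NFIL3, a basic leucine zipper repressor. ID2 fell from 25.7, 25.2 and 25.3 CPM to 15.4, 11.8 and 14.4 CPM (-0.90 ± 0.15, edgeR adjusted p = 0.01761). SLC2A3 fell from 18.8, 20.02 and 17.1 CPM to 10.4, 12.3 and 8.94 CPM (-0.83 ± 0.12), and NFIL3 from 13.04, 12.6 and 14.04 CPM to 8.27, 8.44 and 6.33 CPM (-0.80 ± 0.11, edgeR adjusted p = 0.005347 for both). CCNG2 differed more between replicates than between groups, with 4.99, 3.99 and 8.95 CPM in DMSO and 2.86, 1.49 and 5.00 CPM in ML-792, so its change (-0.99 ± 0.20, edgeR adjusted p = 0.04014) appears only within replicate pairs. In the 6 fits without a single library, SLC2A3 and NFIL3 passed in 6 each, IL18RAP in 2, and ID2 and CCNG2 in 1 each.

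No gene of the SUMO pathway itself passed the test. Of 23 tested genes for the modifiers, the enzymes that attach them and the proteases, 0 passed edgeR's adjusted p in either direction (1 at an unadjusted p below 0.05, where 9.79% of all genes tested fell, and 0 with DESeq2 or limma voom), and their log2 differences lay between -0.16 and 0.16 (median 0.03). UBA2, the catalytic subunit of the activating enzyme, averaged 319 CPM in DMSO and 327 CPM in ML-792 (0.03 ± 0.05), and SAE1 averaged 242 and 244 CPM (0.01 ± 0.05). ML-792 acts on the enzyme, and conjugates were not measured in these libraries, so no transcript serves as a direct check of the treatment. Of 14 genes of PML nuclear bodies and SUMO-targeted ubiquitin ligases, 0 passed with edgeR, DESeq2 or limma voom (1 at an unadjusted p below 0.05, median -0.02), with ATRX at 0.05 ± 0.08 and DAXX at -0.11 ± 0.09.

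Among 32 genes of SUMO-linked silencing, CTCF and cohesin, 2 rose: ATF7IP, a partner of the histone methyltransferase SETDB1, from 64.6 to 84.0 CPM (0.38 ± 0.06, edgeR adjusted p = 0.01425) and MORC2, an ATPase of the HUSH silencing pathway, from 40.1 to 53.1 CPM (0.41 ± 0.08, edgeR adjusted p = 0.03716). In the 6 fits that left out a single library, ATF7IP passed in 1 and MORC2 in 0. The list's median was 0.01, and 0.759% of all genes tested rose at the adjusted p. CTCF had 154, 129 and 129.6 CPM in DMSO and 145, 129.9 and 129.7 CPM in ML-792 (-0.03 ± 0.09, 95% confidence interval -0.22 to 0.17). Of the germ cell genes, 7 of 28 had enough reads to be tested, and 0 passed with edgeR, DESeq2 or limma voom, nor at an unadjusted p below 0.05. The 2 most abundant were MAGEB2 (0.05 ± 0.07) and PIWIL4 (0.01 ± 0.10).

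Growth and stress signalling genes moved in both directions. Of 48 tested ERK feedback and immediate early genes, 5 rose (SPRY4, IER3, RGS16, TRIB1 and NOCT) and 2 fell (DUSP6 and ETV5), with a median of 0.02. Over all genes tested, 0.759% rose and 0.365% fell at the adjusted p. This list too was chosen with earlier results of these data known, so the contrast is a description. TRIB1, a pseudokinase that promotes degradation of C/EBP alpha, rose from 198 to 286 CPM (0.53 ± 0.11, edgeR adjusted p = 0.03792). It passed in 1 of the 6 fits without a single library. In contrast to SPRY4, the ERK-induced phosphatase gene DUSP6 fell from 69.3 to 48.8 CPM (-0.51 ± 0.07, edgeR adjusted p = 0.008456), and the ERK-responsive factor ETV5 from 53.6 to 41.1 CPM (-0.38 ± 0.07, edgeR adjusted p = 0.02097). The immediate early factors FOSB (-0.11 ± 0.27) and EGR1 (-0.02 ± 0.21) did not pass, with 95% confidence intervals of -0.70 to 0.48 and -0.48 to 0.43. The replicate pairs of EGR1 went in different directions (-0.37, -0.19 and 0.51).

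MYC was the only member of its own list to pass the test. The list held 48 tested genes of the MYC network and its targets, of which 34 had a log2 difference above 0 and the median was 0.09. At an unadjusted p below 0.05, 10 of the 48 were higher and 0 lower in edgeR, beside 9.79% of all genes in either direction. None of 76 ribosomal protein genes (median 0.06), 45 replication genes (median -0.0044), 40 mitosis genes (median -0.06) and 42 DNA repair genes (median -0.0031) passed with edgeR, DESeq2 or limma voom. At an unadjusted p below 0.05 in edgeR these lists had 0, 3, 2 and 4 members. PCNA, the replication clamp, averaged 536 and 546 CPM (0.02 ± 0.07), and TOP2A 849 and 801 CPM (-0.08 ± 0.08).

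None of 32 NF-kB targets and few interferon genes passed the test. The median of the NF-kB targets was 0.01. At an unadjusted p below 0.05 edgeR gave 6 higher and 3 lower, beside 9.79% of all genes in either direction. DESeq2 passed BIRC3 and TNFAIP8, named here after their values were seen, and limma voom 0. NFKBIA measured 0.22 ± 0.14, SOD2 0.16 ± 0.07 and NFKB2 0.05 ± 0.15, the last from 4.40, 4.58 and 5.43 CPM in DMSO to 3.70, 5.52 and 5.77 CPM in ML-792. ICAM1 averaged 0.234 and 0.200 CPM, and CXCL10 had at most 0.13 CPM in any of the 6 libraries, too few reads to compare. Of 45 interferon genes and interferon-stimulated genes, IRF2, a repressor of interferon-responsive promoters, fell from 13.8 to 9.93 CPM (-0.47 ± 0.10, edgeR adjusted p = 0.04235), and 0 rose with edgeR or limma voom. IRF2 passed in 1 of the 6 fits without a single library. At an unadjusted p below 0.05 edgeR gave 1 interferon gene higher and 5 lower, beside the same 9.79% of all genes. DESeq2 passed HERC5 upward, named after its value was seen. Of the 8 genes that the study itself followed, IER3 and MYC passed here. The study picked MYC, with EGR1, ICAM1 and NFKB2, partly on these samples, so its direction is not independent evidence.

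Myeloid maturation genes gave 4 that rose and 1 that fell of 32 tested, beside 0.759% and 0.365% of all genes, while the list's median was -0.10. Earlier results of these data were known when the list was chosen, so this is a description. Beside CLEC5A and SERPINB2, GFI1, a repressor needed for neutrophil development, rose from 87.4 to 122 CPM (0.47 ± 0.07, edgeR adjusted p = 0.01102), and TLR2, a receptor of bacterial lipoproteins, from 15.8 to 21.5 CPM (0.46 ± 0.09, edgeR adjusted p = 0.04189). FCGR2A, an activating receptor for immunoglobulin G, fell from 3.73 to 2.28 CPM (-0.72 ± 0.14, edgeR adjusted p = 0.03335). In the 6 fits without a single library, CLEC5A and SERPINB2 passed in 6 each, GFI1 in 3 and FCGR2A in 1. Among 16 primary granule genes 0 passed with edgeR, DESeq2 or limma voom. At an unadjusted p below 0.05 edgeR gave 5 higher and 0 lower, beside 9.79% of all genes in either direction. ML-792 replicate 3 stood out in some: PRTN3 had 69.1, 130.5 and 167 CPM in DMSO and 120.2, 133 and 777 CPM in ML-792 (1.07 ± 0.42, edgeR adjusted p = 0.4041), and AZU1 25.8, 44.1 and 48.1 CPM against 41.5, 56.4 and 112 CPM (0.75 ± 0.20, edgeR adjusted p = 0.1485).

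Few members of the stress and metabolic lists passed the adjusted p, which 0.759% of all genes passed upward and 0.365% downward. HSPH1, a co-chaperone of HSP70, rose from 331 to 432 CPM (0.38 ± 0.05), 1 of 31 heat shock and protein folding genes. Among integrated stress and unfolded protein response genes, HSPA5, the chaperone BiP of the endoplasmic reticulum, rose from 867 to 1094 CPM (0.33 ± 0.06) and the transcription factor XBP1 from 198 to 235 CPM (0.24 ± 0.05), while DDIT4, an inhibitor of mTORC1, fell from 58.2 to 38.3 CPM (-0.61 ± 0.08), of 30 tested. BCL2, which restrains mitochondrial apoptosis, rose from 220.2 to 316 CPM (0.51 ± 0.11, edgeR adjusted p = 0.04625) as 1 of 23 apoptosis regulators, and the p53 target PMAIP1 measured -0.08 ± 0.06. Of 25 cholesterol synthesis genes HMGCS1 rose (0.67 ± 0.09), and of 29 hypoxia and glycolysis genes NDRG1 rose (0.55 ± 0.09) and SLC2A3 fell. In the 6 fits without a single library, HSPH1, DDIT4, HMGCS1 and SLC2A3 passed in 6 each. NDRG1 passed in 3, and HSPA5, XBP1 and BCL2 in 0. None of 26 p53 targets, 20 NRF2 targets and 13 mitochondrially encoded transcripts passed with edgeR, DESeq2 or limma voom, and 3, 1 and 0 did at an unadjusted p below 0.05 in edgeR, where 9.79% of all genes tested fell. All 13 mitochondrial transcripts had a log2 difference above 0 (0.15 to 0.34). The mitochondrial share of reads was higher in ML-792 than in DMSO in replicates 1 and 2 and lower in replicate 3, and its part in these differences was not tested.

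**Figure D3:**
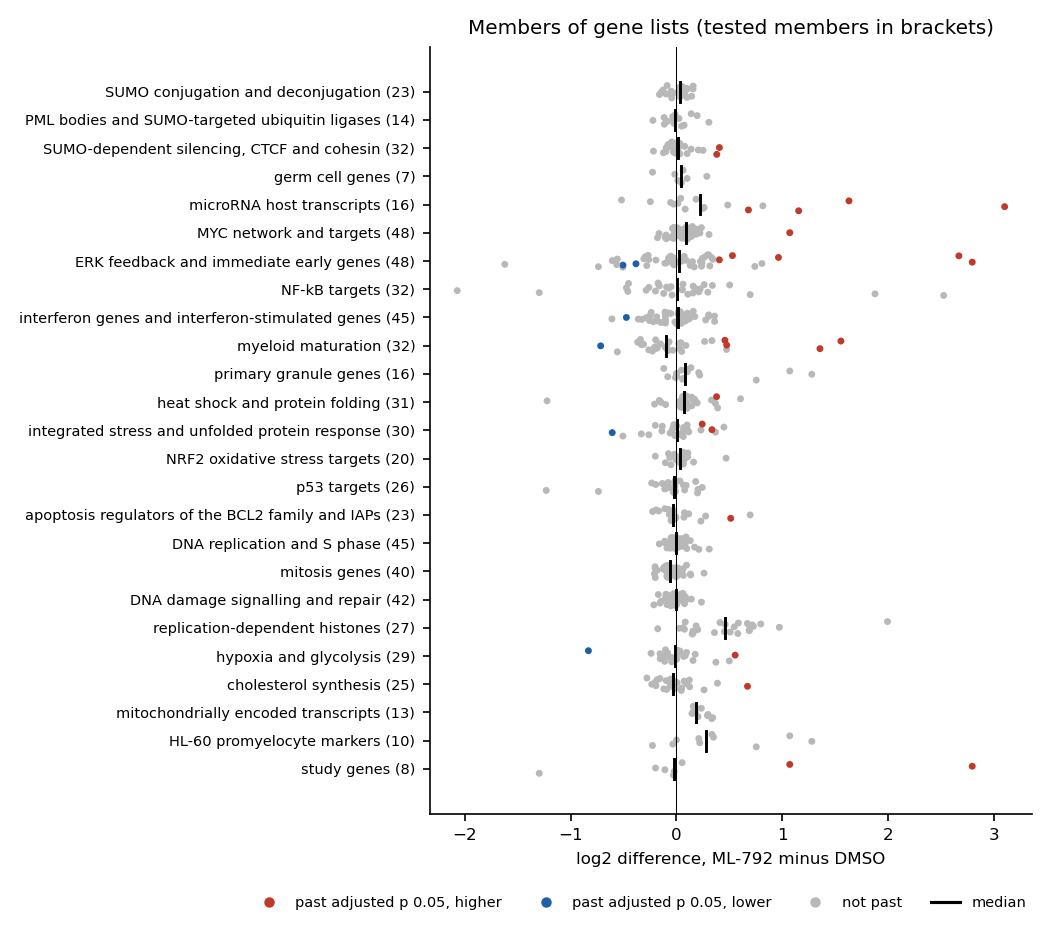
Each point is 1 tested member of a gene list, plotted by its log2 difference between ML-792 and DMSO; black bars are list medians and colours mark members past the adjusted p. Most medians lie close to 0, and the members that passed are few in each list; the study genes at the bottom were picked by the study, some of them partly on these samples.

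The replication-dependent histones were unlike the other lists in their median. Of 58 genes 27 had enough reads to be tested, 26 of these had a log2 difference above 0 and the median was 0.46, but 0 passed the adjusted p with edgeR, DESeq2 or limma voom (4 higher at an unadjusted p below 0.05 in edgeR, where 9.79% of all genes tested fell). Their transcripts lack a poly(A) tail for the most part, so few of their reads enter such libraries, and near-identical copies make their counts uncertain. The 2 most abundant were HIST1H2BK (0.06 ± 0.25) and HIST1H1C (0.15 ± 0.18), the latter at 2.01, 2.48 and 6.70 CPM in DMSO and 1.94, 4.33 and 5.53 CPM in ML-792.

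The 6 DNR-treated libraries allow the effect of ML-792 to be read in samples whose levels do not enter its difference from DMSO, although the filter and the spread of the fit came from all 12 libraries. Of the 22 genes called higher, 21 differed in the same direction between ML-792+DNR and DNR and 13 passed the adjusted p (59.1%, against 1.65% of all genes that were higher there). Of the 3 called lower, PTPRE and MPZL3 passed in the same direction (2.29% of all genes were lower there), and SLA did not, at 0.58 ± 0.31. Of the 104 genes higher at the adjusted p alone, 94 had the same direction and 48 passed (46.2%), and of the 50 lower ones 41 and 18 (36.0%).

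All 5 microRNA hosts passed in DNR-treated cells. MIR17HG measured 25.5, 33.2 and 30.0 CPM in DNR and 179, 221 and 257 CPM in ML-792+DNR (2.88 ± 0.19, edgeR adjusted p = 6.627e-05), close to its 3.10 without DNR. MIR503HG (1.35 ± 0.14) and MYC (1.74 ± 0.12) were the 2 called genes with a larger difference with DNR than without. SPRY4 measured 2.47 ± 0.26, against 2.67 without DNR, and CA2 1.01 ± 0.10, against 2.08.

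Others did not pass the adjusted p with DNR. IER3, at 43.0 to 44.1 CPM in the DNR libraries, measured 51.5 to 60.7 CPM with both drugs (0.34 ± 0.18, edgeR adjusted p = 0.3122). RUBCNL showed 0.22 ± 0.99, ANGPT1 0.19 ± 0.37, SPP1 0.02 ± 0.21 and CYP4F3 -0.43 ± 0.52. The median of the 22 genes was 1.54 without DNR and 0.90 with it, and 20 of the 22 were smaller with DNR. This is a description, since the genes were chosen for their size without DNR. With edgeR, the test of the difference between the effects with and without DNR passed for 1 gene in all (0.0073%), and for 0 of the 25. CA2 (-1.07 ± 0.14) and IER3 (-2.46 ± 0.35) came nearest of the 25, each at an edgeR adjusted p of 0.06373. The count over all genes was 40 without the count filter and 70 with DESeq2. In the edgeR test, at an unadjusted p below 0.05 it passed for 11 of the 25, 10 of which had the smaller effect with DNR. The difference without DNR, on which the 25 were chosen, enters this test. These values and counts are therefore a description too, and whether the effect is smaller with DNR was not tested by them.

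**Figure D4:**
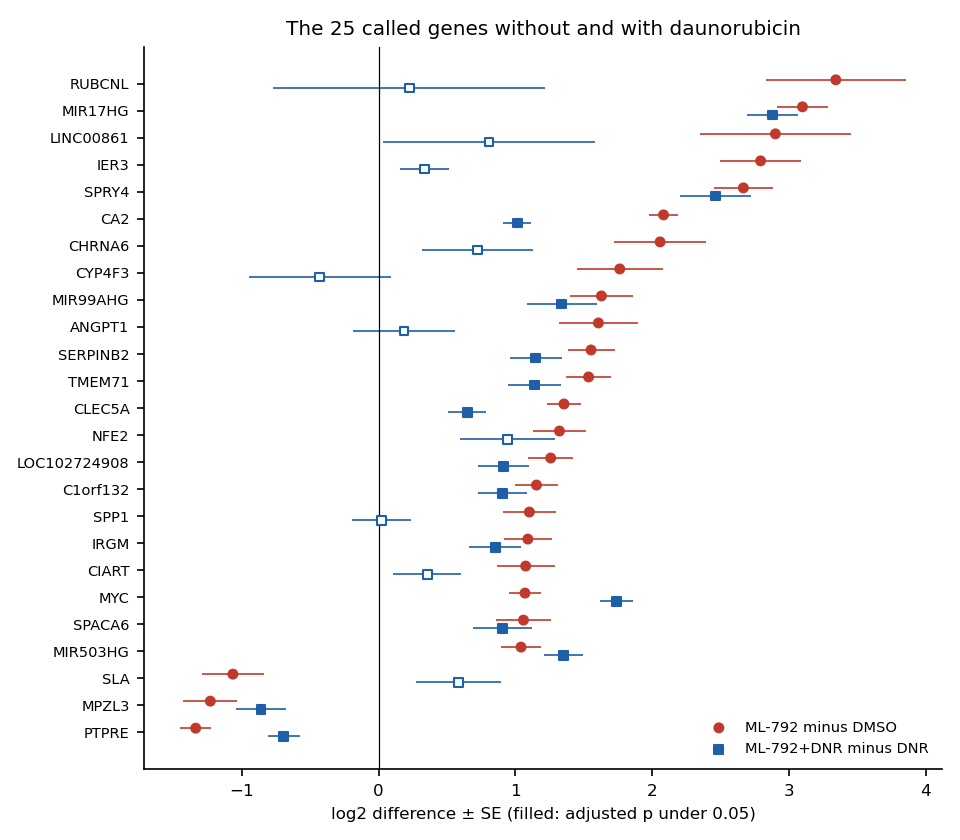
Log2 difference ± SE made by ML-792 in the 25 called genes, without DNR (red circles) and in DNR-treated cells (blue squares), with filled symbols for an adjusted p below 0.05. The 5 microRNA hosts, MYC, SPRY4 and CA2 are filled in both, while IER3, RUBCNL, ANGPT1, CYP4F3 and SPP1 are open with DNR, RUBCNL and CYP4F3 with wide errors.

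Zinc finger genes near chromosome ends made up a visible share of the smaller changes, a pattern noticed after the values were seen. KRAB zinc finger proteins silence retroelements through TRIM28, and their own gene clusters carry heterochromatin marks. Of 379 tested genes with a ZNF symbol, 11 rose and 1 fell at the adjusted p (median 0.02), beside 0.759% and 0.365% of all genes. At the end of the long arm of chromosome 12 (GRCh37), 5 of 7 rose: ZNF10, ZNF891, ZNF268, ZNF84 and ZNF140, with log2 differences of 0.53 to 0.90, and ZNF605 and ZNF26 measured 0.24 each. At the end of the long arm of chromosome 19, 5 of 43 rose, namely ZNF274, ZNF551, ZNF134, ZNF416 and ZNF550 (0.35 to 0.81), and the median of the 43 was 0.22. Elsewhere 1 of 329 rose and 1 fell, with a median of 0.0048. The windows were drawn around raised genes, so this contrast follows from how they were chosen and is a description. Their tested genes run from RPS11P5 to ZNF268 at 12q and from ZNF582 to CENPBD1P1 at 19q.

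ZNF274, which recruits SETDB1 to zinc finger clusters, had the smallest adjusted p of these genes, with means of 16.8 CPM in DMSO and 29.5 CPM in ML-792 (0.81 ± 0.09, edgeR adjusted p = 0.001931). The genes in the same windows without a ZNF symbol, 1 at 12q (RPS11P5) and 13 at 19q, did not pass (median at 19q -0.05). This split is by symbol only. The zinc finger genes ZSCAN22 (-0.07), MZF1 (-0.09) and ZBTB45 (0.03) count as other genes, and the antisense RNA ZNF667-AS1 as a ZNF gene. In DNR-treated cells 9 of the 10 raised genes of both windows had a smaller log2 difference, with values from 0.20 for ZNF550 to 0.74 for ZNF891 over all 10, a description, since they were chosen for their change without DNR. Of the 10, 4 passed the adjusted p there: ZNF891 (0.74 ± 0.13), ZNF134 (0.63 ± 0.13), ZNF10 (0.62 ± 0.15) and ZNF274 (0.60 ± 0.10). The other 6 measured 0.20 to 0.37.

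**Figure D5:**
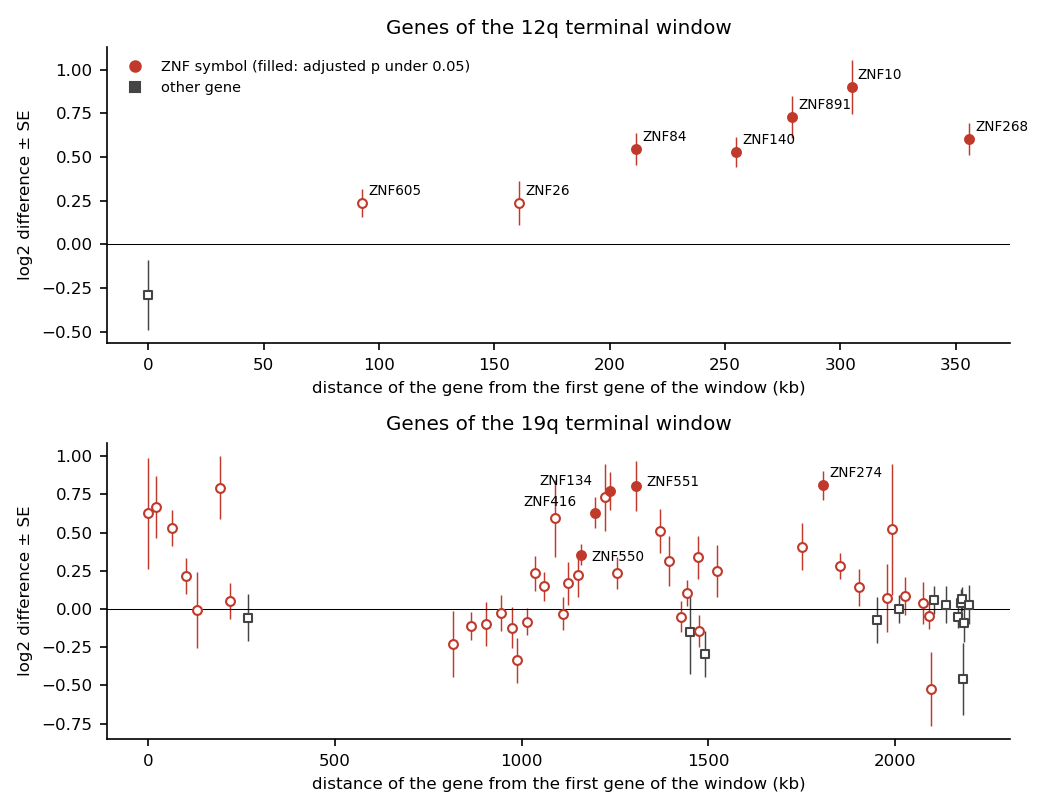
Log2 difference ± SE between ML-792 and DMSO for tested genes at the ends of 12q and 19q, by distance from the first gene of the window (kb); red circles are genes with a ZNF symbol, grey squares other genes, filled where the adjusted p was below 0.05. The 5 filled genes of 12q follow each other among the tested genes, and the starts of 4 of the 5 at 19q lie within 147 kb.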

How the data were processed

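Polyadenylated RNA of HL-60 cells from 3 independent experiments was sequenced as single-end reads of 50 bases. The authors aligned the reads with TopHat2 (version 2.1.1, using Bowtie2 2.3.5.1) to hg19, which is GRCh37, and obtained gene counts from HTSeq (version 0.11.1). DESeq2, Picard and Cufflinks (version 2.2.1) appear in the submitters' processing notes as well. For the annotation and the strand option of the counting, the sources used here give nothing. The deposited raw counts were used as they stand, without the 5 counter lines of HTSeq (2.31% to 2.83% of reads in the 6 libraries were ambiguous and 26.6% to 27.2% aligned more than once). A deposited table of normalized values and one of the authors' own fold changes and p-values were not used.

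Of 42157 genes, 24018 had a read and 13696 passed edgeR's filterByExpr (minimum count 10, minimum total 15). The edgeR 4.0.16 quasi-likelihood test (R 4.3.3, TMM factors) was fitted to all 12 libraries with group and replicate number as terms, with Benjamini-Hochberg adjustment over all genes tested. The script was tested on simulated data. The replicate numbers were taken as a block because same-numbered libraries deviated together from their group means. In the 6 libraries of the comparison, r was 0.285 to 0.488, against -0.373 to 0.091 for other pairs across groups. Over all 12 libraries the ranges met: same-numbered pairs had 0.072 (DNR 1 with ML-792 1) to 0.587, and other pairs across groups -0.498 to 0.091. No library was a copy of another (chi-square per gene 18.4 to 64.3 within groups). An exact two-sided permutation test of 3 against 3 libraries has 0.1 as its smallest p and was therefore not run. Precision is limited by 3 replicates and, below about 1 CPM, by read number.

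Named were all called genes (per-library values for the 12 largest changes with 1 CPM or more in their higher group, and for called microRNA hosts), the 5 most raised and 5 most lowered genes past the adjusted p but under 2-fold with a higher-group mean of 5 CPM or more, the study's genes, up to 4 members of each of 30 gene lists (those past the adjusted p or, without one, the 2 most abundant), and genes within 100 kb of called hosts. The members and lists were chosen with earlier results of these data known. Of the genes counted, 34022 matched a GENCODE annotation on GRCh37 by symbol and 1396 by an older symbol. Alternatives tried were DESeq2 1.42.0, limma 3.58.1 voom, other scalings and count filters, no replicate block, the 6 libraries alone, and leaving out each library or replicate. The figures were drawn with matplotlib 3.10.9. The single values of some list members are not reported here.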

Additional observations from a re-analysis of the deposited data

Results flagged for a closer look

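The effect of ML-792 differed between cells with and without DNR in 1 gene by edgeR's test of the difference itself. TNFAIP2, an NF-kB-responsive gene, averaged 10.1 CPM in DMSO and 12.7 CPM in ML-792 (log2 difference 0.34 ± 0.12, edgeR adjusted p = 0.3354), and 72.8 CPM in DNR and 31.1 CPM in ML-792+DNR (-1.27 ± 0.11, edgeR adjusted p = 0.0006026). The difference between the effects was -1.61 ± 0.17 on the log2 scale (edgeR adjusted p = 0.01131). It is not among the genes called in ML-792 against DMSO.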

How the results depend on the processing

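All 25 called genes kept their direction in each alternative that tested them (18, or 17 for CHRNA6, CYP4F3, LINC00861 and RUBCNL, which a minimum mean of 1 CPM removed), and 4 stayed past the adjusted p in every one. With a minimum change of 1.5-fold, 55 genes were called higher and 19 lower. DESeq2 with the replicate block gave 259 genes past the adjusted p and 70 for the difference between the effects with and without DNR, against 154 and 1 with edgeR; without the count filter the latter was 40. The cause was not tested. Without the replicate block, edgeR called 10 genes higher, 1 lower and 33 past the adjusted p, 27 for the effect of ML-792 in DNR-treated cells (52 with the block, at 2-fold) and 0 for the difference between effects (493 at an unadjusted p below 0.05). The same fit on the 6 libraries alone, without the block, gave 7 higher and 20 past the adjusted p, and with the block 18 and 146. Leaving out single libraries or whole replicates, which also reduces the samples, gave 4 to 21 genes higher, 0 to 4 lower and 5 to 90 past the adjusted p. The lowest values were those without replicate 3, at an unadjusted p below 0.05 of 875 genes against 1341 in the full fit. Of the 25 called genes 13 stayed past the adjusted p without any 1 library: MIR17HG, C1orf132, MIR503HG, CA2, CLEC5A, IER3, LOC102724908, MYC, NFE2, PTPRE, SERPINB2, SPRY4 and TMEM71. Another scaling moved the median of all genes by at most 0.03 on the log2 scale. Depth limits what can be said of genes below about 1 CPM.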
